A study of Mus musculus with 4 samples.

Results

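The cytosolic ribosomal protein genes were taken as a module by their symbols: Rps or Rpl followed by a number, with the variants ending in a, x or l, together with the stalk genes Rplp0 to Rplp2, Rpsa and Rps27a. The rule found 80 genes of 32285 in the files, 31 of the small ribosomal subunit, 46 of the large subunit and 3 of the stalk. They were followed across cell classes, barcodes of few transcripts and 2 times of day in single nuclei from the paraventricular nucleus (PVN) of the mouse hypothalamus, a control centre of hormone release, stress and feeding. Both tested libraries were taken at zeitgeber time 20 (ZT20, 20 h after lights on, in the night) and both others at ZT8 (in the day). All 4 came from untreated male C57BL/6 mice, 10 weeks old by the sample labels and 10 to 12 weeks by the design text, with 5 PVN pooled in each library, nuclei purified on a sucrose gradient and 3' ends counted by droplet sequencing. Whether both libraries at a time point came from different mice is not stated, so p-values measure the spread between these libraries, which may be technical.

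Each ribosome of the cytosol carries one copy of nearly every ribosomal protein, so the genes are among the most evenly co-expressed in the genome. Their messenger RNAs are short, stable and abundant in the cytoplasm, and most begin with a C followed by a run of pyrimidines, the TOP motif, through which mTOR signalling and LARP1 control their translation. In preparations of nuclei, such RNAs come from transcripts being made and exported and from cytoplasm that stays with the nuclei or floats free in the droplets.

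The ZT20 libraries held 63558166 and 61933800 unique molecular identifiers (UMIs, one per counted RNA molecule) in 8320 and 9413 barcodes, against 57970649 and 69223344 UMIs in 6453 and 6923 barcodes at ZT8. Libraries shared 10 to 25 barcodes in pairs, at most 0.347% of the smaller library. Classes were rebuilt from markers, with the ribosomal protein genes left out of the clustering. Unnamed nuclei, mostly of few UMIs, made up 45.2 and 53.1% of kept nuclei at ZT20, against 33.8 and 35.6% at ZT8. The makeup of the punches also differed. The summed hypothalamic markers Sim1, Otp and Fezf1 stood at 32.9 and 30.4 CPM (UMIs scaled to the same total in every library) at ZT20, against 4.91 and 6.25 CPM at ZT8. Tcf7l2, Prkch, Ntng1 and Rora, listed as thalamic markers, summed to 3480 and 3405 CPM against 4686 and 4730 CPM. They were not particular to neurons: astrocyte-like nuclei held them at 4298 and 4451 CPM at ZT20 against 4773 and 4831 CPM at ZT8. Among kept nuclei, tanycyte-like nuclei numbered 90 and 94 at ZT20 against 1 in each ZT8 library, and oligodendrocyte-like nuclei 569 and 481 against 894 and 971. Marker levels and class sizes moved with time beside every result on pooled or neuron-like nuclei below, and their part in the ribosomal protein values was not tested.

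The module was measured at every level of abundance. In all kept nuclei the genes with the highest mean levels included Rps29, Rpl38, Rplp1, Rps21 and Rpl13, which encode a small zinc-binding protein of the small subunit, a small protein of the large subunit, an acidic stalk protein and core proteins of the small and the large subunit. CPM counts 3' ends once per molecule, whatever the transcript length. Rps29 (chr12:69157722-69159186, minus strand, build mm10) stood at 210 and 242 CPM at ZT20, against 109.8 and 123 CPM at ZT8. Rpl38 (chr11:114668524-114672331, plus strand) stood at 195 and 227 CPM against 113 and 122 CPM. Both genes were higher in each ZT20 library than in either ZT8 library. The 6 genes with the lowest levels were Rpl29, the stalk base Rplp0, and the paralogues Rps27l, Rpl3l, Rpl39l and Rpl10l.

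The tissue-restricted paralogues were near or at the limit of detection while their partners were abundant. Rpl3l, known from heart and skeletal muscle, had 37 and 15 UMIs at ZT20 and 16 and 30 at ZT8, whereas Rpl3, the core protein that helps shape the peptidyl transferase centre, had 7610 and 7934 against 4688 and 5448. The testis-associated Rpl39l had 3 and 0 UMIs at ZT20 and 3 in each ZT8 library, and Rpl10l, which stands in for X-linked Rpl10 in male meiosis, had 1 in each ZT20 library and 0 in both ZT8 libraries. Rpl39l and Rpl10l did not pass the filter on low counts, so 78 of the 80 genes were tested in all kept nuclei. Rps27l, a p53-responsive relative of Rps27, was low but readily counted, with 12.2 and 12.8 CPM at ZT20 and 9.21 and 10.2 CPM at ZT8, against 116 and 128 CPM and 68.2 and 75.8 CPM for Rps27. Rps4l was not analysed here. The files keep 5 rows of ribosomal protein pseudogenes, of which Rpl9-ps6 had the most UMIs (151 and 140 at ZT20, 107 and 119 at ZT8); ribosomal protein genes have many near-identical processed copies, so how the authors' counting split reads between copies leaves each gene's absolute level uncertain.

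Transcript starts of 60 of the 80 genes were found in RefSeq's promoter windows (GRCm38.p6), and a few are shown because the family is known for a pyrimidine run at the start; they include long and short runs and were not drawn at random. Each window below runs from 15 bases before the annotated start to 15 bases from it, and capitals mark the longest run of C and T that touches the 5 bases to either side of the start.
Rpl38 (chr11:114668565-114668594, plus): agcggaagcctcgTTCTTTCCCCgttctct
Rps27 (chr3:90213634-90213663, minus): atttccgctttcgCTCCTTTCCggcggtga
Rps24 (chr14:24490663-24490692, plus): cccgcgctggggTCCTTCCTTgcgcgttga
Rpl35a (chr16:33056467-33056496, plus): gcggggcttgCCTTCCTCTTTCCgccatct
Rpl15 (chr14:18270972-18271001, minus): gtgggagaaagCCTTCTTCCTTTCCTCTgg
Rps21 (chr2:180257364-180257393, plus): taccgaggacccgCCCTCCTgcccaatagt
Rpl5 (chr5:107900513-107900542, plus): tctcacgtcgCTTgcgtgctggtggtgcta
Rpl41 (chr10:128549154-128549183, minus): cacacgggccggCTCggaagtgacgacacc
Of the 72 windows of these genes, 38.9% had a run of 7 or more pyrimidines, against 14.1% of 32851 windows of all genes. Rpl5 and Rpl41 had runs of 3 at the annotated start. The letters CCGGAAG, on either strand in the 300-base window, occurred in 36.1% of the genes' windows against 8.86% of all windows, AAGATGGC in 9.72% against 2.75%, and GGGCGG in 58.3% against 35.7%. These are matches of letters, not sites of binding, and an annotated start that is off by a few bases moves a run out of reach.

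Pooled over depths, the share of UMIs taken by the 80 genes together differed more between cell classes than between times. In neuron-like nuclei it was 0.496 and 0.497% at ZT20, against 0.340 and 0.350% at ZT8. OPC-like nuclei (oligodendrocyte precursors) gave 0.841 and 0.798% against 0.606 and 0.601%, and astrocyte-like nuclei 1.02 and 1.06% against 0.814 and 0.774%. Oligodendrocyte-like nuclei gave 1.26 and 1.30% against 0.941 and 0.956%, and microglia-like nuclei 1.56 and 1.58% against 1.10 and 1.12%. In each of these 5 classes both ZT20 libraries lay above both ZT8 libraries, and at either time the classes kept the order neuron, OPC, astrocyte, oligodendrocyte, microglia with no library out of place. The median UMIs per nucleus, over the 4 libraries, were 12101.5 to 14791 in neuron-like, 4944.5 to 5934 in OPC-like, 3676.5 to 4100 in astrocyte-like, 2844.5 to 3214 in oligodendrocyte-like and 2546.5 to 2750 in microglia-like nuclei. The order of the shares was the reverse of the order of these depths. Within bins of depth the classes lay closer. Between 5000 and 10000 UMIs, neuron-like, astrocyte-like and oligodendrocyte-like nuclei gave 0.715, 0.842 and 0.838% at ZT20 (means of 2 libraries). At ZT8 they gave 0.543, 0.632 and 0.647%. Between 2000 and 5000 UMIs they gave 0.977, 1.15 and 1.35% at ZT20, against 0.768, 0.869 and 0.993% at ZT8.

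**Figure D1:**
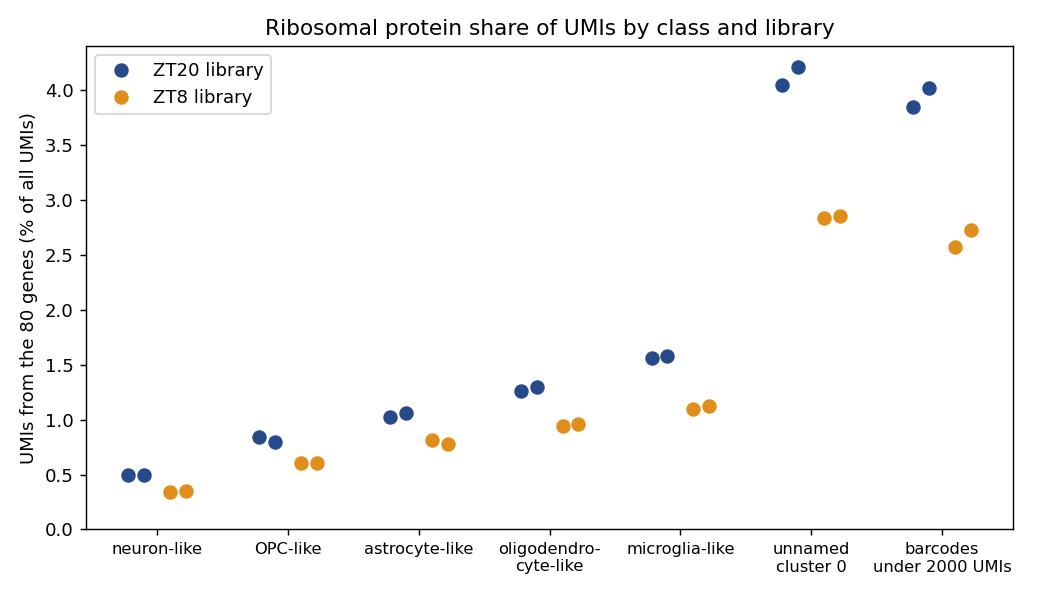
Share of all UMIs (%) that came from the 80 ribosomal protein genes, per library (points), in 5 named classes, the largest unnamed cluster and all barcodes under 2000 UMIs; ZT20 libraries stand left of ZT8 libraries. Neuron-like nuclei lie at 0.340 to 0.497%, barcodes under 2000 UMIs at 2.58 to 4.02%, and ZT20 lies above ZT8 in each set.

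Barcodes of few UMIs held the module at its highest. All barcodes under 2000 UMIs gave 3.85 and 4.02% at ZT20, against 2.58 and 2.73% at ZT8, while nuclei of 2000 or more UMIs gave 0.554 and 0.558% against 0.411 and 0.422%. The largest unnamed cluster, of 9723 nuclei with a median of 877 UMIs, gave 4.05 and 4.21% against 2.84 and 2.85%; Ubb, Oxt, Rpl38 and Rps29 were among its leading genes. With 2 libraries a time an exact two-sided permutation test of a share cannot give a p below 0.333, and it gave 0.333 in all 6 sets tested.

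Summed over barcodes, the low-UMI set carried markers of many cell types, and mixing within single barcodes was not measured. The set included named nuclei: between 1000 and 2000 UMIs, oligodendrocyte-like nuclei numbered 39 and 36 at ZT20 against 134 and 70 at ZT8. The 8 neuron markers, all detected, summed to 7298 and 7253 CPM at ZT20 and 7354 and 7978 CPM at ZT8, the 10 oligodendrocyte markers to 3216 and 3193 CPM against 6077 and 5463 CPM, and the 9 astrocyte markers to 1188 and 1167 CPM against 1348 and 1339 CPM. The 7 mural markers summed to 49.7 and 49.4 CPM against 502 and 489 CPM, and the 8 endothelial markers to 120.2 and 120.4 CPM against 312 and 291 CPM. The magnocellular peptides Oxt and Avp, messages of very high abundance in the cells that make them, summed to 1507 and 1415 CPM at ZT20 and 93.3 and 178 CPM at ZT8, and in oligodendrocyte-like nuclei, which should lack them, to 515 and 366 CPM against 29.9 and 48.2 CPM. The median mitochondrial share of UMIs was 0.715 and 0.719% in the low-UMI barcodes of ZT20 and 0.490 and 0.502% in those of ZT8, and 0.126 and 0.120% against 0.0788 and 0.0826% in nuclei of 2000 or more UMIs. Peptide messages outside neurons and mitochondrial RNA were thus higher at ZT20 beside the ribosomal protein share, and their part in it was not tested.

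With library kept as a block, low-UMI barcodes were compared with nuclei of 2000 or more UMIs. Of the 78 genes tested, 77 were called higher in the low-UMI barcodes (edgeR quasi-likelihood test, Benjamini-Hochberg adjusted p under 0.05) and none lower, where 34.5% of all genes were called higher and 37.3% lower. Their median log2 difference was 2.59, and 2.55 to 2.79 under the other scalings, which shifted the median of all genes between -0.11 and 0.12. Rpl38 was 7.11-fold higher (log2 2.83, SE 0.06, adjusted p 1.63e-40) and stood at 1119 and 1232 CPM in low-UMI barcodes of ZT20 and 729 and 829 CPM in those of ZT8, against 139.6 and 146 CPM and 91.7 and 101 CPM in nuclei of 2000 or more UMIs. Rplp1 (log2 2.82), Rpl37 (2.78), Rpl23 (2.71), Rps29 (2.72), Rps25 (2.88), Rps23 (2.70) and Rpl26 (2.71) followed by p. The smallest called differences were in Rps2 and Rpl22 (log2 1.77 and 1.78). Rpl3l, with a log2 difference of 0.43 (SE 0.69, adjusted p 0.589), was the gene not called.

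Other cytoplasmic RNAs were mostly called higher in the same comparison and nuclear-retained RNAs mostly lower. All 24 translation factor and TOP genes tested were called higher in low-UMI barcodes (median log2 2.01), as were 25 of 26 rows of abundant cytoplasmic messages such as Ubb and Tmsb4x (2.57), 68 of 70 nuclear-encoded respiratory chain genes (2.54) and 13 of 13 mitochondrially encoded genes (2.45). Of 10 nuclear-retained RNAs, 8 were called lower, Meg3 and Kcnq1ot1 among them (median -1.85). Ribosome biogenesis genes, whose proteins act in the nucleolus, had 22 of 30 called higher and 6 lower (median 0.70). Over all genes 34.5% were called higher and 37.3% lower.

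The number of ribosomal protein UMIs per barcode varied far less than the depth of the barcode. In barcodes under 1000 UMIs the median barcode held 36 ribosomal protein UMIs in each ZT20 library, against 22 and 24 at ZT8. Between 2000 and 5000 UMIs it held 44 in each ZT20 library against 30 and 32, between 10000 and 20000 UMIs 71 in each against 52 and 57, and in nuclei of 20000 or more UMIs 94 in each against 70 and 75. Every ZT20 value lay above every ZT8 value in all 6 depth bins. As a share, the module dropped to 0.344% in the deepest bin, against 4.22% in the shallowest, at ZT20 (means of 2 libraries), and to 0.276% against 2.92% at ZT8.

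Counted in UMIs, the difference between times varied little from the shallowest bin to the middle ones. ZT20 exceeded ZT8 by 13 UMIs per barcode under 1000 UMIs, 13.8 between 1000 and 2000, 13 between 2000 and 5000, 14.0 between 5000 and 10000, 16.5 between 10000 and 20000 and 21.5 from 20000 UMIs (differences of the 2 libraries' mean medians). The ratio of ZT20 to ZT8 over the same bins was 1.57, 1.46, 1.42, 1.34, 1.30 and 1.30. Within neuron-like nuclei the ratio was 1.31, 1.33, 1.32 and 1.31 over the 4 bins from 2000 UMIs, while the difference was 9.5, 14.0, 17.0 and 21.0 UMIs. The pooled bins differ in class makeup, and the shallowest held barcodes of a median of 875.5 and 855 UMIs at ZT20 against 782 and 833 UMIs at ZT8. At 2000 to 5000 UMIs astrocyte-like nuclei held 42 in each ZT20 library against 29 and 31, and oligodendrocyte-like nuclei 43 in each against 29 and 31. These glial differences were 12 and 13 UMIs. Over the bins of these classes the difference ran from 9.5 UMIs, in neuron-like nuclei of 2000 to 5000 UMIs and oligodendrocyte-like nuclei of 1000 to 2000, to 21.0 in neuron-like nuclei from 20000 UMIs. How much of these UMIs was RNA from outside the nucleus was not tested.

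**Figure D2:**
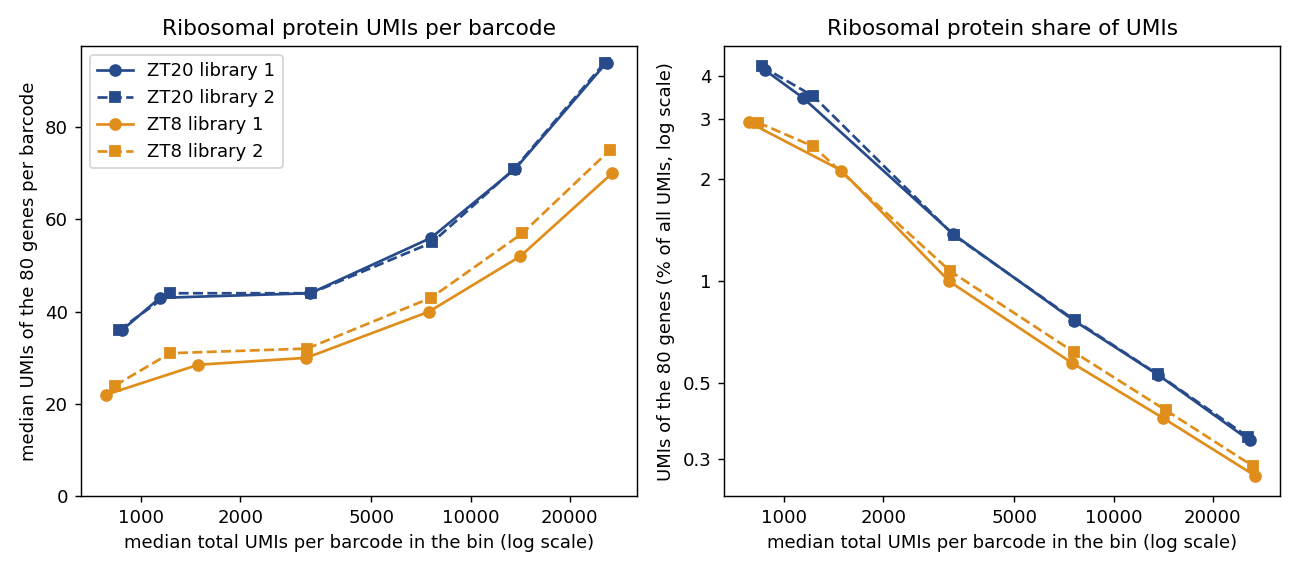
Ribosomal protein UMIs against depth, in 6 bins of total UMIs over all deposited barcodes. Left, the median UMIs of the 80 genes per barcode, 36 to 94 at ZT20 and 22 to 75 at ZT8; right, their share of all UMIs on log axes, which drops with depth in all 4 libraries; lines join the bins of one library.

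The question the times pose is which genes of the module differed between night and day. In all kept nuclei, 77 of the 78 genes tested were called higher at ZT20 and none lower, where 24.3% of all 21040 genes were called higher and 23.4% lower. Their median log2 change was 0.61, against 0.00 over all genes tested. All 31 small subunit genes, 43 of 44 large subunit genes and all 3 stalk genes rose. Rpl3l was the exception, at a log2 change of 0.17 (SE 0.37). The size of the pooled change depended on which nuclei were pooled. The median log2 change was 0.35 when only nuclei of named classes were pooled (74 genes called) and 0.34 and 0.35 among nuclei of 2000 to 5000 and 10000 to 20000 UMIs (58 and 69 called), 3 alternatives added after the data were seen. It was 0.40 when every library gave equally many nuclei to each cluster (76 called).

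The 8 genes with the smallest p in all kept nuclei spanned both subunits. Rps15a stood at 93.3 and 95.4 CPM at ZT20, against 58.8 and 60.6 CPM at ZT8 (log2 change 0.62, SE 0.03, adjusted p 2.26e-14, edgeR). Rpl35a, a large subunit protein mutated in some Diamond-Blackfan anaemia, stood at 129 and 139 CPM against 69.9 and 73.4 CPM (log2 change 0.86, SE 0.03, adjusted p 3.38e-14). In both the times did not overlap, which was a condition for being named by p. Rpl32, Rpl36a and Rps23 rose by 0.74, 0.76 and 0.74, and Rpl30, Rps20 and Rpl3 by 0.60, 0.62 and 0.61, on the log2 scale. The highest changes were in genes with more spread between libraries, Rpl37 (0.93) and Rps29 (0.92). Rpl5, which carries 5S ribosomal RNA into the large subunit, had the lowest change among those called, with 62.8 and 65.0 CPM at ZT20 against 53.4 and 52.0 CPM at ZT8 (log2 0.24).

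Nuclei of 2000 or more UMIs gave smaller changes than the pool. There 75 of 78 genes were called higher and none lower (23.3 and 22.6% of all genes), with a median log2 change of 0.37. Rplp1, an acidic stalk protein that recruits translation factors, stood at 131 and 132 CPM at ZT20 against 86.1 and 88.8 CPM at ZT8 (log2 0.56, SE 0.02, adjusted p 2.85e-15). Rps21, Rpl35a, Rps24, Rps27a, Rpl41, Rpl6 and Rps23 followed, with log2 changes of 0.41 to 0.62. Rpl5, Rps27l and Rpl3l were not called.

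In barcodes under 2000 UMIs, 76 of 77 genes were called higher at ZT20 and none lower (12.2 and 11.8% of all genes), with a median log2 change of 0.61. Rps21 stood at 887 and 1011 CPM at ZT20, against 489 and 552 CPM at ZT8 (log2 0.93, SE 0.07, adjusted p 4.63e-09). Rpl37 stood at 957 and 1028 CPM against 536 and 608 CPM (log2 0.85). For both genes the lower ZT20 library held over 1.5 times the higher ZT8 library. Rps27l, at 56.1 and 59.8 CPM against 56.2 and 53.7 CPM, overlapped between times and was not called (log2 0.14, adjusted p 0.458).

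Within neuron-like nuclei most of the module rose as well. Of 78 genes, 74 were called higher and none lower (22.4 and 22.1% of all genes), with a median log2 change of 0.44. The class was spread over its clusters differently at each time: cluster 1 had 1020 and 1018 nuclei at ZT20 against 465 and 457 at ZT8, and cluster 4 had 281 and 262 against 570 and 598. With equally many nuclei of each cluster from every library, 72 genes were called higher and the median was 0.37. Rplp1 stood at 114 and 115 CPM at ZT20 against 67.4 and 67.8 CPM at ZT8, a 0.70 log2 change (SE 0.03, adjusted p 2.46e-15). Rps21 stood at 119 and 123 CPM against 70.4 and 74.5 CPM (0.68), and Rps27a, made as a fusion with ubiquitin, at 87.4 and 90.02 CPM against 56.1 and 54.1 CPM (0.63). In all 3 genes the times did not overlap, which was a condition for being named. Rpl37, Rpl35a, Rps24, Rpl23 and Rps23 rose by 0.76, 0.66, 0.54, 0.52 and 0.59. The 4 genes not called were Rpl5 (47.3 and 46.4 CPM against 45.0 and 42.6 CPM, log2 0.04, SE 0.04), Rpl29 (0.15), Rps27l (0.16) and Rpl3l (0.13).

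**Figure D3:**
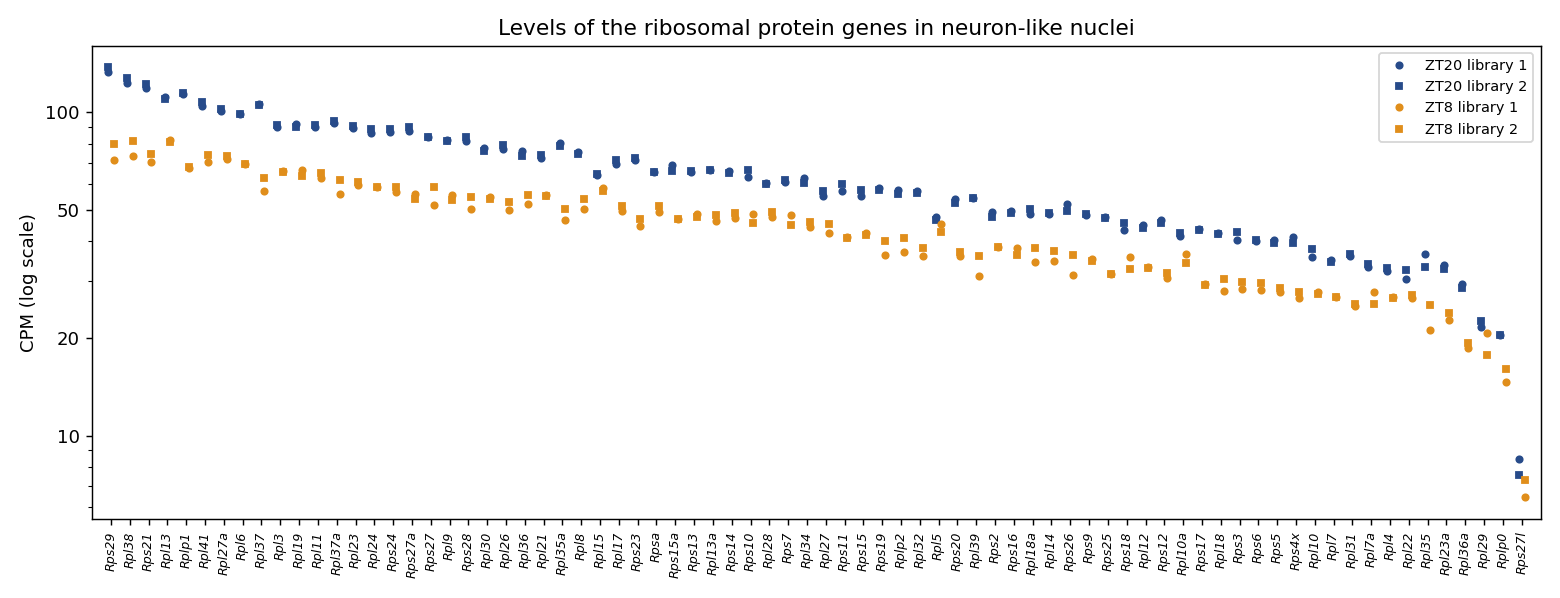
Levels of 76 of the 80 ribosomal protein genes (CPM, log axis) in neuron-like nuclei, per library, ordered by mean level. ZT20 points stand left of ZT8 points. The genes left out include Rpl3l, Rpl39l and Rpl10l, which had few or no UMIs. The gap between times is seen at high and low levels, from Rps29 at 133 and 138 CPM against 71.2 and 79.9 CPM to Rplp0 at 20.5 CPM in each ZT20 library against 14.6 and 16.1 CPM, and is narrow for Rpl5 and for Rps27l, the lowest gene plotted.

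The neuron clusters, tested by number, gave the same direction with differing counts. Clusters 1, 2, 4 and 6, of 1208 to 2960 nuclei, had 62, 56, 63 and 62 of 77 genes called higher (7.47, 5.06, 7.31 and 5.06% of all genes higher; 5.69, 4.66, 5.26 and 3.31% lower) with median log2 changes of 0.32, 0.34, 0.40 and 0.41. Clusters 10, 14 and 15, of 302 to 546 nuclei, had 15, 33 and 2 called (1.58, 4.78 and 0.145% higher; 0.649, 3.89 and 0.0599% lower) with medians of 0.35, 0.45 and 0.35. In cluster 16, of 276 nuclei, no gene of 76 was called by edgeR or DESeq2 (0.613% of all genes higher and 1.37% lower by edgeR) although the median was 0.36 and 27 had an unadjusted p under 0.05. DESeq2 called fewer: 20, 25, 37 and 14 genes in clusters 1, 2, 4 and 6, 3 in cluster 14 and 0 in clusters 10 and 15. No gene of the module was called lower in any of the 8 clusters by either tool. Rps29, Rplp1, Rpl37 and Rps21 were among the first 5 of the module by p in each of clusters 1, 2 and 4, and rose there by 0.51 to 0.76 on the log2 scale.

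Astrocyte-like and oligodendrocyte-like nuclei, 389 to 429 and 481 to 971 per library, gave medians like those of neurons with fewer calls. In astrocyte-like nuclei 46 of 77 genes were called higher and none lower (3.45 and 2.22% of all genes; median log2 0.42). The count dropped to 27 without the second ZT8 library, to 30 without the second ZT20 library, to 14 with DESeq2 and to 5 in nuclei of 5000 or more UMIs. Rps21 stood at 249.96 and 262 CPM at ZT20, against 149.8 and 150.5 CPM at ZT8 (log2 0.82, SE 0.09, adjusted p 1.25e-07). Rpl37, Rpl41, Rpl38, Rps29, Rpl37a, Rps24 and Rps27 rose by 0.62 to 0.75. Rpsa, the laminin-receptor-related protein of the small subunit, showed overlapping levels of 104.5 and 119 CPM against 117 and 114 CPM (log2 0.00), and Rpl28 likewise 127 and 120.1 CPM against 137 and 117 CPM (0.01).

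In oligodendrocyte-like nuclei 59 of 77 genes were called higher and none lower (5.47 and 4.78% of all genes; median log2 0.42), and none among nuclei of 5000 or more UMIs. Rps21 stood at 335 and 327 CPM at ZT20 against 192 and 196 CPM at ZT8 (log2 0.80, SE 0.07, adjusted p 1.89e-22), and Rps27 at 213 and 211 CPM against 126 and 124 CPM (0.79). Rps29, Rpl37, Rpl35a, Rps28, Rps23 and Rpl37a rose by 0.59 to 0.72. Rpl5 overlapped between times at 89.4 and 87.7 CPM against 85.1 and 88.3 CPM. OPC-like nuclei had 15 of 77 genes called higher (1.01% of all genes higher, 0.412% lower; median 0.45) and microglia-like nuclei 9 of 76 (0.635% higher, 0.331% lower; median 0.46), led by Rps29 (0.74) and by Rpl37 (0.96), and none lower; DESeq2 called 0 genes in both classes.

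**Figure D4:**
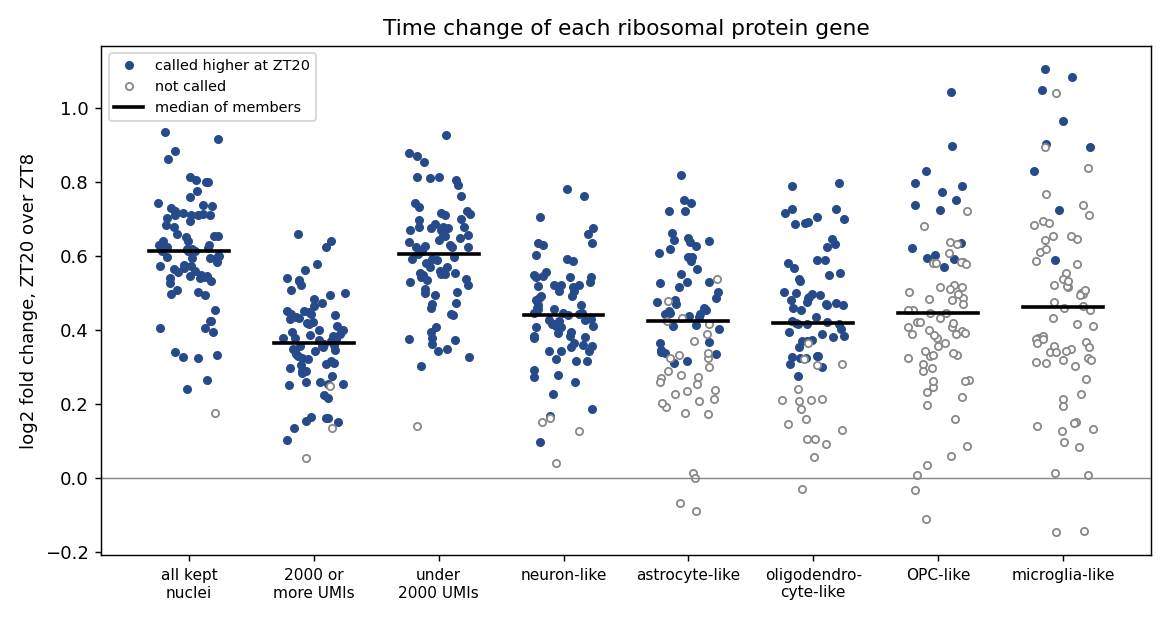
Log2 fold change (ZT20 over ZT8) of each ribosomal protein gene tested in 8 sets of nuclei or barcodes; filled points passed the edgeR test, open points did not, and bars mark the medians (0.61, 0.37, 0.61, 0.44, 0.42, 0.42, 0.45 and 0.46). No filled point lies below 0.

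Whether the change itself differed between sets was tested with an interaction term. Low-UMI barcodes showed the larger change: 46 of 78 genes had a larger ZT20 over ZT8 difference there than in nuclei of 2000 or more UMIs, and none a smaller one (3.43 and 4.51% of all genes), with a median difference of 0.23 log2. Rpl41, the shortest protein of the ribosome, differed by 0.38 (SE 0.07, adjusted p 7.25e-06), with 798 and 843 CPM against 468 and 506 CPM in low-UMI barcodes and 116 and 119 CPM against 83.2 and 86.6 CPM in deeper nuclei. Rps15a and Rpl10 differed by 0.42 and 0.43. The class makeup of the low-UMI barcodes also differed between times, with more oligodendrocyte-like nuclei at ZT8. Its part in the larger change was not tested. The count was 58 with relative log expression scaling and 11 with library totals, which shift the median of all genes by -0.11 and leave the genes' median at 0.14; it was 5 without the second ZT20 library, 20 without the first and 28 without the first ZT8 library.

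Between glia and neurons no difference in the change was called. For astrocyte-like minus neuron-like nuclei, edgeR called 0 of 78 genes in either direction (1.75% of all genes higher, 1.7% lower); the median difference was -0.01 log2 and the quartiles lay at -0.12 and 0.09. At an unadjusted p under 0.05, 3 were higher and 4 lower. For oligodendrocyte-like minus neuron-like nuclei it called 0 of 77 (2.25% in each direction), with a median of -0.02, quartiles of -0.11 and 0.05, and 2 higher and 5 lower at an unadjusted p under 0.05. With library totals in place of the scaling factors, 2 and 4 genes were called lower, where the median of all genes lay at -0.13 and -0.10.

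Size of the encoded protein went with the size of the change. Across the 77 genes other than Rpl3l, Rpl39l and Rpl10l, the log2 change in all kept nuclei had a Pearson r of -0.53 and a Spearman rho of -0.61 with coding length, and in neuron-like nuclei -0.50 and -0.58. Over the other sets r with coding length ran from -0.54 in nuclei of 2000 or more UMIs to -0.22 in neuron cluster 16. With transcript length r was weaker, at -0.285 in all kept nuclei and -0.242 in neuron-like nuclei. Genes are not independent replicates and all come from the same 4 libraries, so the coefficients are descriptions. The 20 genes of the shortest coding sequence (75 to 369 bases), among them Rpl41, Rps29, Rpl38 and Rpl37, had a median log2 change of 0.55 in neuron-like nuclei, the 37 between had 0.43, and the 20 longest (612 to 1257 bases), among them Rpl3, Rpl4 and Rpl5, had 0.37. Other genes of the same coding lengths ran the same way at a lower level, with medians of 0.19 over 592 genes, 0.09 over 1370 genes and 0.02 over 4591 genes. The longest pyrimidine run at the start showed little relation to the change (r -0.18 over 57 genes in neuron-like nuclei). The split by coding length was chosen after the changes had been seen.

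**Figure D5:**
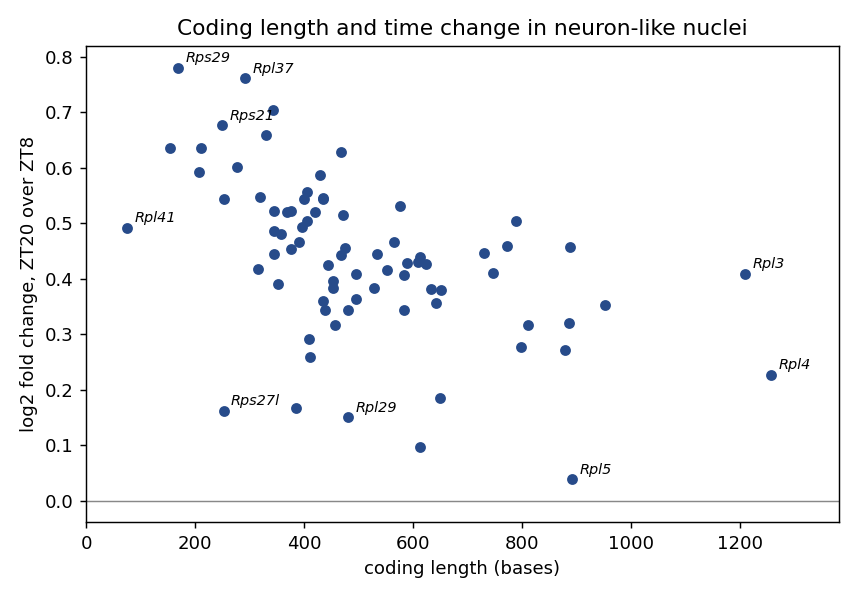
Log2 fold change (ZT20 over ZT8) in neuron-like nuclei against coding length (bases) for 77 ribosomal protein genes (points), with some named. Short genes such as Rps29 and Rpl37 lie at 0.78 and 0.76, and Rpl5 at 0.04.

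The genes moved together across cell classes. Over 29 sums of a class in a library (7 named classes and the largest unnamed cluster, each with at least 50 nuclei in the library, all from the same 4 libraries), the level of each of 77 genes was correlated with the rest of the module. The lowest r was 0.918 for Rpl22, whose protein also binds other RNAs, followed by 0.946 for Rps27l and 0.949 for Rps2, and the median was 0.984. Without the unnamed cluster, an alternative added after the data were seen, the 25 sums of named classes gave a lowest r of 0.906, again for Rpl22, and a median of 0.977. Among 11461 other genes the 6 most like the summed module were Rps3a1 (r 0.995), Fau (0.992), Eif1 (0.991), Eef1a1 (0.987), Krtcap2 (0.979) and Tpt1 (0.977); over the named classes alone these had r from 0.965 to 0.992. Rps3a1 and Fau are themselves ribosomal protein genes whose symbols the rule does not cover. Eif1 and Eef1a1 encode translation factors, and Tpt1 has a TOP message. Further down the ranking came mt-Nd4 (0.974), Ndufa7 (0.973), Tmsb4x (0.964) and Ubb (0.958), so a high r was not particular to translation genes. Rpl22, Rps27l and Rps2 had a lower r with the rest of the module than these had with its sum.

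Genes around the module were counted in all kept nuclei from lists (24.3% of all genes were called higher and 23.4% lower). Of 8 ribosomal protein genes outside the symbol rule, 7 rose (median log2 0.49), led by Rpl22l1 (0.62), Rps3a1 (0.64) and Rpl36al (0.48). Of 24 translation factors and TOP genes 17 rose and none fell (0.24), with Naca, a chaperone of nascent chains, at 0.59, Eif1 at 0.45 and Eef1a1 at 0.47. Ribosome biogenesis genes were mixed, with 7 of 30 called higher and 9 lower (median -0.01): Nop10 rose by 0.60 and Fbl by 0.22, while Las1l fell by 0.39. The mTOR list joined genes of mTOR signalling to TOP messages with transcription factors such as Myc and E2f1. Of its 25 genes, 1 was called higher and 8 lower (median -0.08). Among those lower were Deptor, an inhibitor of mTOR, at -0.48, the transcription factor E2f1 at -0.92 and Rictor at -0.15. In neuron-like nuclei the biogenesis list had 3 higher and 11 lower, and the mTOR list 1 and 9, where 22.4% of all genes were called higher and 22.1% lower.

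Pooled over all kept nuclei, other abundant RNAs of the cytoplasm and mitochondria were mostly called higher too. Of 78 mitochondrial ribosomal protein genes 54 were called higher and 4 lower (median log2 0.22), Mrps33, Mrps6 and Mrps12 rising by 0.56, 0.56 and 0.49. Of 70 nuclear-encoded respiratory chain genes tested, 63 rose and 4 fell (0.48), led by Uqcr11 (0.70), Ndufa5 (0.59) and Cox7c (0.57). All 13 mitochondrially encoded genes rose (0.78), mt-Co3, mt-Cytb and mt-Co2 by 0.83, 0.93 and 0.78. The abundant cytoplasmic messages had 19 of 26 rows called higher and 2 lower (0.31), with Hsp90ab1 at 0.54, Cst3 at 0.52 and Itm2b at 0.31, and 15 higher and 7 lower in nuclei of 2000 or more UMIs (0.08), where 23.3% of all genes were called higher and 22.6% lower. By depth, over all deposited barcodes, the summed share of the abundant cytoplasmic messages differed little between times. Between 5000 and 10000 UMIs it overlapped, at 0.549 and 0.536% at ZT20 against 0.515 and 0.551% at ZT8. In the other bins ZT20 lay above ZT8, as under 1000 UMIs, at 2.90 and 2.96% against 2.73 and 2.68%. Of 10 nuclear-retained RNAs 1 was called higher and 6 lower (-0.08), Neat1 falling by 0.48, Snhg14 by 0.12 and Miat by 0.13.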

How the data were processed

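RNA of nuclei from pooled PVN tissue was measured in 2 ZT20 and 2 ZT8 libraries. The matrices, as deposited, give for each barcode a raw count of UMIs per gene, made by Cell Ranger 7.0.0 per the file headers; the submitters' processing notes name STAR 2.6 and mm10. How reads in introns were counted is not given in the sources used here. The genes and lists were chosen with earlier results of these data known.

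Barcodes below 500 genes or above 5% mitochondrial UMIs were dropped, and the highest Scrublet scores were removed at 0.8% per 1000 nuclei. Nuclei of 2000 or more UMIs and the named classes passed these filters. The set of barcodes under 2000 UMIs and the depth bins over all deposited barcodes were left unfiltered. Clustering used scanpy 1.11.5 and leidenalg 0.10.2 (3000 variable genes without ribosomal protein, heat shock, glucocorticoid-response, mitochondrial, immediate early or clock genes, 40 components, 20 neighbours, resolution 1). Clusters were named from markers, with a marker score of at least 0.5, a median doublet score under 0.08 (0.1 in neurons) and, for neurons, a median of 2000 UMIs or more, thresholds set after the clusters were seen. Differences from another grouping may come from these rebuilt names.

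UMI counts were summed per library and set and tested on all genes with edgeR 4.0.16 (R 4.3.3; filterByExpr, TMM, robust quasi-likelihood F test, two-sided, Benjamini-Hochberg; called at an adjusted p under 0.05). On simulated counts shaped like all kept nuclei the test recovered 48, 88, 98 and 100% of genes changed 1.25-, 1.5-, 2- and 4-fold. Recovery was 20, 62, 96 and 100% for barcodes under 2000 UMIs, and 58, 88, 98 and 100% for neuron-like nuclei. Glial classes were not simulated. Alternatives were DESeq2 1.42.0, other scalings and filters, each library left out, a replicate block and other sets of nuclei. Named genes are up to 8 per comparison by smallest p with no overlap between times, the 6 highest and 6 lowest levels, paralogue pairs, the 6 most alike other genes and 3 per list; not all are printed, and 1 item is not reported here. Coordinates and coding lengths (without the stop codon) are from GENCODE M21 for mm10, start-site sequences from RefSeq.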

Additional observations from a re-analysis of the deposited data

Results flagged for a closer look

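The time change of the ribosomal protein genes differed between barcode sets of the same libraries. Class makeup of the low-UMI barcodes also differed between times, and its part was not tested. By the interaction test, 46 of 78 genes had a larger ZT20 over ZT8 difference in barcodes under 2000 UMIs than in nuclei of 2000 or more UMIs, and Rpl41, Rps15a and Rpl10 led by p, with log2 differences of 0.38, 0.42 and 0.43. The direction was positive for these 3 genes under each alternative run, while the count ranged from 5 to 58. Groups of 2 libraries are too small to look for single outlying libraries.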

How the results depend on the processing

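Of 144 alternative values of the main counts and shares, 132 stayed on the same side or within 1.5 times. No share difference reversed. Counts were compared by size alone, so a reversal could not be recorded for them. Of 656 alternative values for 60 named gene results, 15 lost their call and 0 turned. These 60 were the called genes of smallest p in the 6 main sets, the low-UMI comparison and the low-UMI interaction. Genes named in OPC-like nuclei, microglia-like nuclei and neuron clusters were not among them. The astrocyte-like count of 46 became 14 with DESeq2 and 5 in nuclei of 5000 or more UMIs, the oligodendrocyte-like count of 59 became 0 in such nuclei, and the sum of 317 calls over the other classes and neuron clusters became 99 with DESeq2; the cause was not tested beyond the fewer nuclei of a depth limit. With library totals, the low-UMI interaction count of 46 became 11 and the glial interaction count of 0 became 6. Leaving out each library in turn gave 77 calls in all kept nuclei in every case, 72 to 74 in nuclei of 2000 or more UMIs, 73 to 76 in low-UMI barcodes, 72 to 75 in neuron-like, 27 to 39 in astrocyte-like and 48 to 56 in oligodendrocyte-like nuclei, 218 to 260 over the other sets, 77 for low against high UMIs, 5 to 45 for the low-UMI interaction and 0 to 1 for the glial one; a time left with 1 library is assumed to vary like the other. The share difference in all kept nuclei was 0.292 points, and 0.955 as a median over nuclei. Equal replicate numbers did not pair libraries (correlation of their deviations -0.05 in all kept nuclei and -0.05 to 0.05 over the 6 main sets); the replicate block gave 77 calls in all kept nuclei, 75 in nuclei of 2000 or more UMIs, 76 in low-UMI barcodes and 75, 48 and 59 in neuron-like, astrocyte-like and oligodendrocyte-like nuclei. Depth limits the small classes: OPC-like and microglia-like sums rest on 123 to 152 nuclei a library, and an uncalled gene there is not shown to be unchanged.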
